A study of Mus musculus with 24 samples.

Results

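Crmp1, Dpysl2, Dpysl3, Dpysl4 and Dpysl5 are the 5 genes of the collapsin response mediator protein (CRMP) family, and their transcripts were followed over 7 mouse cell lines. They were found through the RefSeq transcript that each array probe names, which gave 8 probes, and the family makes up 5 of the 45547 gene names on the array. Crmp1 and Dpysl4 had 1 probe each, Dpysl2 had 1, Dpysl3 had 3 and Dpysl5 had 2. The family was chosen by the measured levels of Crmp1 over the lines, with earlier results of these arrays known, so the Crmp1 values are a description with no test, and the other 4 genes came in as the rest of its family.

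RNA was measured on 24 one-colour Agilent arrays, 17 of them of 5 melanoma lines and 7 of 2 lines that the labels call myeloid. B16F1-GFP-M (M, 3 arrays) is the parental line of B16F1 mouse melanoma cells marked with green fluorescent protein. B16F1-GFP-D (D, 4 arrays) was recovered as dormant cells from mice in which immunotherapy held the tumour in check, and B16F1-GFP-DB#1 (4 arrays), B16F1-GFP-DB#2 (3 arrays) and B16F1-GFP-DB#3 (3 arrays) are second-generation lines from the brain. M0 (4 arrays) and J365 (3 arrays) are the myeloid lines, and the labels do not say which lines of the study they are. Their titles also carry a shared tag that no melanoma title has and that was not interpreted. All dormant lines were amplified in culture before RNA was taken, and the melanoma cells grew in the same serum-containing medium, so the values describe cultured lines and not cells within a host. In such bulk RNA a smaller number of expressing cells and less RNA per cell cannot be told apart. No source used here says that arrays of a line came from separate isolates or cultures, and the p-values therefore measure the spread between arrays, which may be technical.

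CRMPs are cytosolic phosphoproteins that bind tubulin and carry the signal of secreted class 3 semaphorins, whose receptors are neuropilins and plexins, to the microtubules of a growing axon. Crmp1, Dpysl2 (CRMP2), Dpysl3 (CRMP4), Dpysl4 (CRMP3) and Dpysl5 (CRMP5) are best known from the developing nervous system, and are structural relatives of dihydropyrimidinase, an enzyme of pyrimidine breakdown. Melanocytes descend from the neural crest, whose migrating cells also read semaphorin cues.

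Every level below is a normalized log2 signal, the log2 of the processed intensity of a probe minus the 75th percentile of that array. Levels of different probes are not set against each other, because probes differ in brightness. A probe was detected on an array where the scanner software marked it well above background, and a gene was tested between lines where it was detected on every array of at least 1 of them. A gene was called changed at an adjusted p under 0.05 by limma with the Benjamini-Hochberg adjustment over all genes tested. Of the 5 genes, 4 passed this filter in some comparison, as did 7 of the 8 probes. Dpysl4 did not, and it has no measured level here.

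The stretches of DNA upstream of the transcription start are shown for Crmp1, whose level in M lay below that in every recovered melanoma line, and for Dpysl5, whose brighter probe fell below detection in 1 of them while its other probe did not. The search of the RefSeq promoter table (GRCm38.p6) left out 1 chromosome, so that a family member on it would have no window. It gave windows for 2 of the 5 genes, with 2 starts for Crmp1, and these genes are shown for that reason. The windows are 250 bases long, end at the base before the start, lie on the plus strand and are written 5′ to 3′, and the capitals mark the GC box (GGGCGG, read on both strands, overlaps counted).
Crmp1, upstream start: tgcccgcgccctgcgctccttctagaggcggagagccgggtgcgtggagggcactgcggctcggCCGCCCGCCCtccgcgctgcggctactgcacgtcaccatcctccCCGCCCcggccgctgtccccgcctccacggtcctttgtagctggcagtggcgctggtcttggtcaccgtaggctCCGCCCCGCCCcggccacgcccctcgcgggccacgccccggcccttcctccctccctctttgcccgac
Crmp1, downstream start: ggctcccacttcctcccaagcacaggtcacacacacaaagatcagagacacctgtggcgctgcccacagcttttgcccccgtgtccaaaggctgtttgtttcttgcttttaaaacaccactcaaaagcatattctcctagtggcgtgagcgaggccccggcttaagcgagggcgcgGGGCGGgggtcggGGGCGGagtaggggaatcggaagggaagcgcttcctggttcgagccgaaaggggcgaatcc
Dpysl5: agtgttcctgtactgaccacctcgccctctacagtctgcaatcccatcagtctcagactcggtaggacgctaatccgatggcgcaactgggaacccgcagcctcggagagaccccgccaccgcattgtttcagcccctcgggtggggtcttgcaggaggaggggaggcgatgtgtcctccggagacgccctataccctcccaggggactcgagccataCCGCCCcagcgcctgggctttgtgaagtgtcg

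The Crmp1 windows span chr5:37241808-37242057 and chr5:37245514-37245763, and the Dpysl5 window spans chr5:30711314-30711563. The upstream Crmp1 window held 5 GC boxes and 30 CpG dinucleotides, and 5.94% of all 32851 mouse promoter windows of that length had as many CpG or more. The downstream Crmp1 window held 2 GC boxes and 16 CpG, and the Dpysl5 window held 1 GC box and 17 CpG, while the median over all windows was 6 CpG. A GC box was present in 32.7% of all windows. None of the 3 windows held CACGTG (in 6.02% of all windows), CATGTG (12.3%) or TATAAA (12.4%). These matches describe letters in the windows and were not tied to any level.

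Crmp1, which is prominent in developing neurons, was low in parental M and higher in each of the 4 lines recovered from dormancy. The M arrays read -1.57, -1.99 and -2.05. The D arrays read 0.73, 0.81, 0.78 and 0.92. No D array came near an M array, and the D arrays lay close together (SD 0.082, n = 4). The DB#1 arrays read 1.96, 1.69, 1.26 and 1.47. The DB#2 arrays read 0.06, -0.46 and -0.20. The DB#3 arrays read 1.41, 1.10 and 1.08. All arrays of these 3 lines were above every M array.

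In order of their means, the melanoma lines were DB#1 (1.60 ± 0.30, SD, n = 4), DB#3 (1.20 ± 0.18, SD, n = 3), D (0.81 ± 0.082, SD, n = 4), DB#2 (-0.20 ± 0.26, SD, n = 3) and M (-1.87 ± 0.26, SD, n = 3). The neighbours DB#1 and DB#3 overlapped in their arrays, and the other neighbours in this order did not. The mean difference from M was 2.68 in D on the log2 scale, which is 6.43-fold. It was 3.47 in DB#1 (11.1-fold), 1.67 in DB#2 (3.19-fold) and 3.07 in DB#3 (8.41-fold). Against D, Crmp1 was higher by 0.78 in DB#1 and by 0.39 in DB#3, and differed by -1.01 in DB#2. DB#2 was thus the brain line whose Crmp1 lay nearest to M, between M and D. These comparisons share the M or the D arrays.

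**Figure D1:**
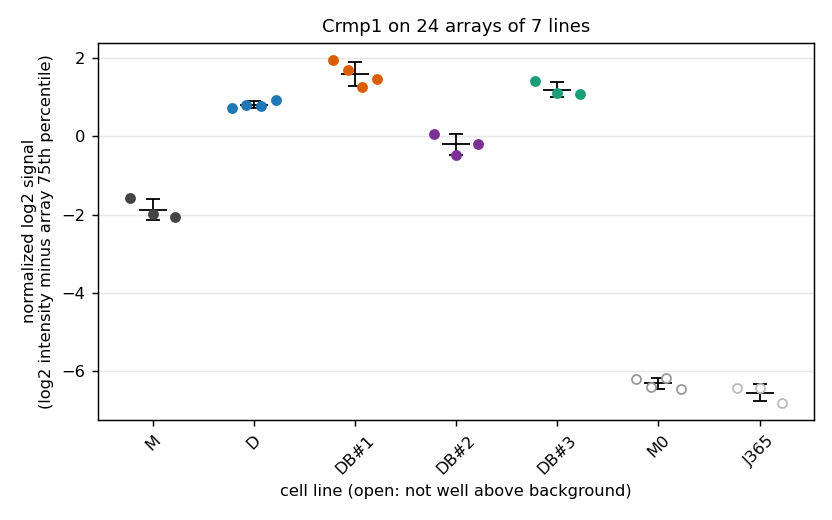
Normalized log2 signal of Crmp1 (y axis, log2 units) on each array, by cell line (x axis). Points are arrays, filled where the probe was well above background, and bars are means with 1 SD. Every array of D, DB#1, DB#2 and DB#3 lies above the M arrays, which reach -1.57 at most, and M0 and J365 lie at -6.17 or lower and were not detected.

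The M and D arrays were spread over 3 slides, each of which held every line. Within the slides Crmp1 differed between D and M by 2.82, 2.77 and 2.50, and between DB#1 and M by 3.32, 3.95 and 3.15. It differed between DB#2 and M by 1.59, 2.06 and 1.37, and between DB#3 and M by 3.14, 3.10 and 2.98. The 4 lines kept the same order on each of the 3 slides. With background correction by normexp the differences from M were smaller, at 2.14 for D, 2.90 for DB#1, 1.27 for DB#2 and 2.53 for DB#3.

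In the myeloid lines Crmp1 has only an upper bound. The M0 arrays read -6.44, -6.21, -6.41 and -6.17 and the J365 arrays -6.81, -6.43 and -6.42. Against the dimmest signal that counted as detected, Crmp1 was at least 4.65-fold higher in M than in M0, and at least 29.9-fold higher in D, 51.4-fold in DB#1, 14.8-fold in DB#2 and 39.1-fold in DB#3. Against J365 the bounds were at least 5.12-fold for M and 32.9-fold for D. Each bound sets the mean of the bright line against the mean over arrays of the lowest signal among detected probes or of the probe itself, whichever was higher.

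The genes next to Crmp1 on chromosome 5 were looked up after the Crmp1 values had been seen. Evc and Evc2, which encode a pair of proteins at the base of the primary cilium, lie on one side. Evc differed from M by 0.01 in D, 0.13 in DB#1, 0.17 in DB#2 and 0.08 in DB#3, and Evc2 by 0.06, 0.28, 0.26 and 0.19 in the same order. None of these 8 differences was called, with adjusted p by limma between 0.63 and 1.00. Jakmip1, a neighbour on the other side, was below the detection filter in these comparisons.

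Dpysl3, which binds actin as well as tubulin, was the Dpysl gene that was called higher than M in all 3 brain lines. M read 2.93, 3.05 and 3.25 with the brightest of its 3 probes. D read 3.51, 3.50, 3.01 and 3.58, and overlapped M through its replicate 3. DB#1 read 4.07, 3.70, 3.73 and 3.74. All were above the M and the D arrays by the brightest probe. DB#2 read 3.61, 4.22 and 4.20, and DB#3 read 4.37, 3.78 and 3.90. Neither of them overlapped M or D by the brightest probe.

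Dpysl3 rose from M by 0.74 ± 0.18 in DB#1 (1.66-fold, SE of the log2 difference, adjusted p = 0.0197 by limma). It rose by 0.94 ± 0.19 in DB#2 (1.91-fold, adjusted p = 0.00527 by limma) and by 0.94 ± 0.19 in DB#3 (1.92-fold, adjusted p = 0.00563 by limma). In D it differed from M by 0.33 ± 0.18 (adjusted p = 0.544 by limma). Within the slides the difference from M ran from 0.48 to 1.03 in DB#1, from 0.56 to 1.27 in DB#2 and from 0.65 to 1.44 in DB#3. The call in DB#1 was lost without M replicate 1, without M replicate 2 or without DB#1 replicate 1, and the call in DB#3 without DB#3 replicate 3. With a fit on the 2 lines compared alone, the adjusted p was 0.0941 in DB#2 and 0.0732 in DB#3.

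The other Dpysl3 probes gave the same direction from M, in D too, where the 3 probes differed from M by 0.33, 0.42 and 0.57. From D, the dimmer probes differed by 0.22 and 0.08 in DB#1, 0.42 and 0.53 in DB#2, and 0.46 and 0.45 in DB#3. With them the DB#1 and DB#2 arrays overlapped D, as did DB#3 with the dimmest probe. In DB#2 the 3 probes differed from M by 0.94, 0.84 and 1.10, in DB#3 by 0.94, 0.88 and 1.02, and in DB#1 by 0.74, 0.64 and 0.65. Against D, Dpysl3 was higher by 0.61 ± 0.18 in DB#2 (adjusted p = 0.0459 by limma), a call that was lost with the mean of the detected probes (adjusted p = 0.109) and without D replicate 3 (adjusted p = 0.115). It was also lost without D replicate 2, D replicate 4, DB#2 replicate 2 or DB#2 replicate 3. In DB#3 it differed from D by 0.62 ± 0.18 (adjusted p = 0.268 by limma) and in DB#1 by 0.41 ± 0.17 (adjusted p = 0.942 by limma). D replicate 3 was the lowest D array for Dpysl3 and for Dpysl2, and it stands apart from all other arrays in detection, with 89.9% of probes well above background against 43.6% to 53.8% on the other 23.

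Dpysl3 was not detected on any myeloid array, where the brightest probe read from -6.39 to -6.03. It was at least 144-fold higher in M than in M0 (adjusted p = 3.78e-20 by limma), and at least 158-fold higher in M than in J365. Dpysl3 passed the filter through M alone, so a higher value in M was the one direction open to it. The adjusted p rests on undetected M0 values and not on a measured M0 level. The detection of Crmp1 and Dpysl3 split the melanoma from the myeloid arrays without exception. The split is not particular to this family, since Tyrp1, Dct, Mlana, Plxna4 and Mical2 showed it too. Of all genes tested, 27.7% were called higher in M than in M0, and the share with this split was not counted. Crmp1 was also chosen with its levels over the lines known.

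**Figure D2:**
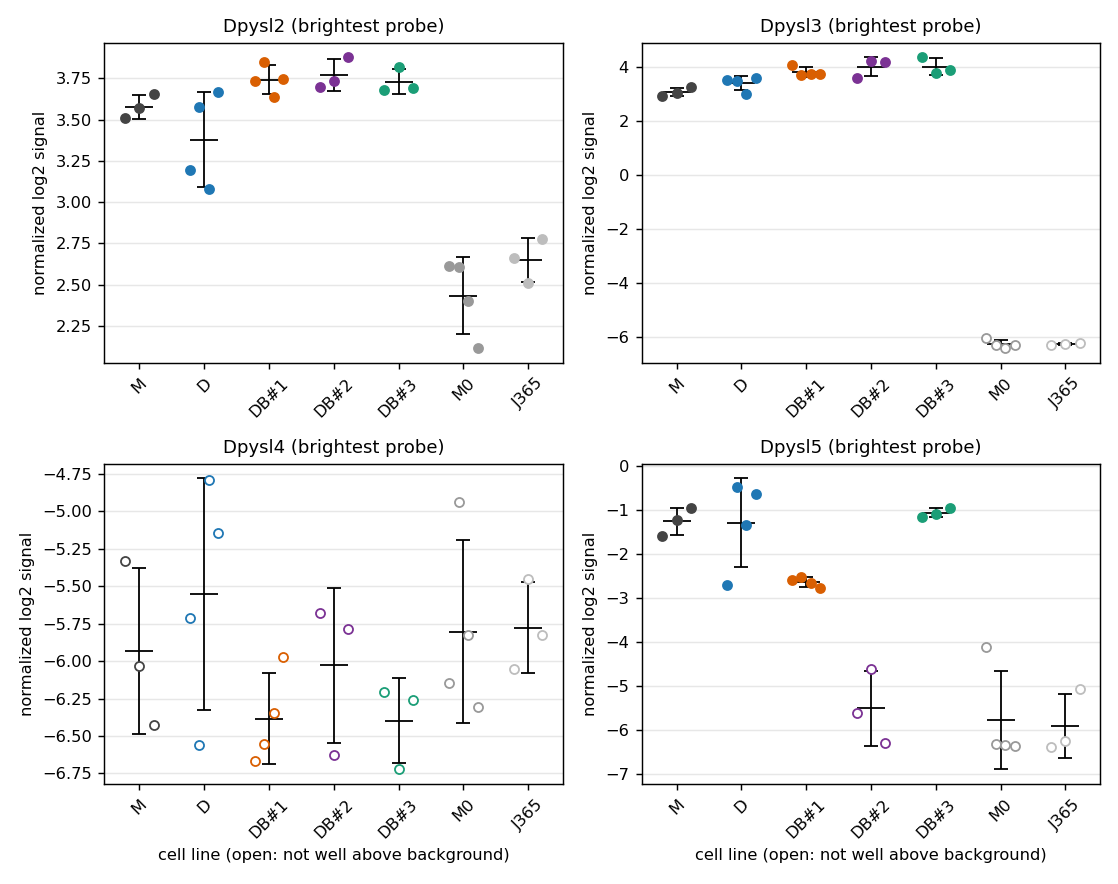
Normalized log2 signal (y axes, log2 units, each panel with its own range) of the brightest probe of Dpysl2, Dpysl3, Dpysl4 and Dpysl5 on each array, by cell line (x axes). Points are arrays, filled where well above background, and bars are means with 1 SD. Dpysl3 rises from M to the DB lines, the 3 DB#2 arrays of Dpysl5 are open and lie at -4.61 or lower, and no Dpysl4 point is filled.

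Dpysl5, which lacks part of the sequence similarity that the other members share and opposes neurite outgrowth driven by Dpysl2 in neurons, gave no detected signal with its brighter probe in DB#2, while its dimmer probe was detected there. M read -1.58, -1.23 and -0.96 with the brighter probe. D read -2.69, -0.48, -1.33 and -0.64, a spread that took in the M arrays. DB#3 read -1.14, -1.09 and -0.95 and overlapped M. DB#1 read -2.59, -2.51, -2.66 and -2.78, all below M and tightly grouped. DB#2 read -5.62, -4.61 and -6.30, and none of its arrays was detected.

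By this probe alone the signal was at least 9.21-fold lower in DB#2 than in M (adjusted p = 5.62e-05 by limma) and at least 9.03-fold lower than in D (adjusted p = 2.28e-05 by limma). It was at least 3.54-fold lower than in DB#1 and at least 10.6-fold lower than in DB#3. Since M passed the detection filter and DB#2 did not, a lower value in DB#2 was the one direction open to this probe. With normexp its difference between DB#2 and M was -1.71. Within the slides the measured difference between DB#2 and M was -3.66, -4.40 and -4.71. In DB#1 it differed from M by -1.38 ± 0.54 (adjusted p = 0.227 by limma), which passed the threshold with normexp (adjusted p = 0.0391) and with a fit on the 2 lines alone (adjusted p = 0.0039).

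The second Dpysl5 probe, which names the same RefSeq transcript, did not show this loss at that size. It read -3.37, -3.17 and -3.34 in M, and -3.52, -4.15 and -3.59 in DB#2. The difference between the lines was -0.46 against -4.25 with the brighter probe, and all 3 DB#2 arrays were detected. The dimmer probe was also detected on 6 of 7 myeloid arrays, where the brighter probe was detected on 0 of 7. The fold bounds above therefore hold for 1 of the 2 probes and not for the gene, and why the probes part was not tested. Averaged over the detected probes, the difference between DB#2 and M was -2.35 and stayed called. This is the mean of -4.25 and -0.46, so it adds nothing to what each probe shows.

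**Figure D3:**
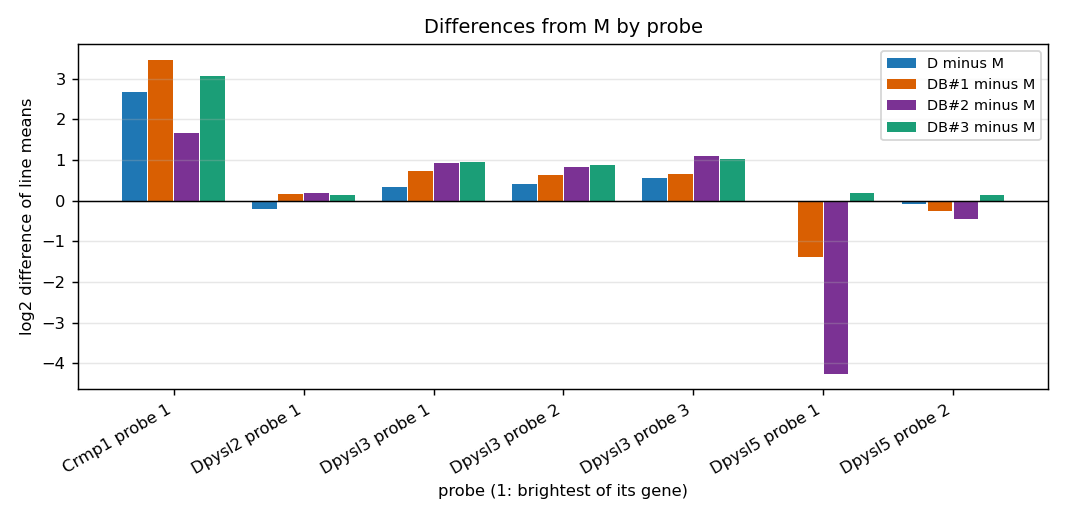
Difference of line means from M (y axis, log2 units) for each of the 7 probes that passed the detection filter (x axis), with 1 bar per line. Bars have no error here, since errors are given in the text for the brightest probe of each gene. Crmp1 lies above 0 in all 4 lines by 1.67 to 3.47, the 3 Dpysl3 probes lie above 0 in all 4, and the Dpysl5 probes differ in DB#2, at -4.25 and -0.46.

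Dpysl2, which carries tubulin dimers to growing microtubules and is the most widely expressed member, was detected on all 24 arrays. M read 3.51, 3.57 and 3.66, D read 3.19, 3.58, 3.08 and 3.67, DB#1 read 3.74, 3.85, 3.64 and 3.75, DB#2 read 3.70, 3.73 and 3.88, and DB#3 read 3.68, 3.82 and 3.69. The melanoma lines lay within a narrow range, and D held both the lowest values and the widest spread. No difference from M passed the test, and they ran from -0.20 in D (95% interval -0.51 to 0.11) to 0.19 in DB#2 (-0.14 to 0.52). Against D, the difference was 0.39 in DB#2 (adjusted p = 0.139 by limma), 0.36 in DB#1 (adjusted p = 0.792) and 0.35 in DB#3 (adjusted p = 0.827).

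Dpysl2 was the one member detected in the myeloid lines by its brightest probe, where M0 read 2.12, 2.61, 2.60 and 2.40 and J365 read 2.78, 2.66 and 2.51. It was 1.15 ± 0.15 higher in M than in M0 on the log2 scale (2.21-fold, adjusted p = 1.13e-06 by limma), and no myeloid array reached a melanoma array. Between J365 and M0 it differed by 0.22 ± 0.15 (adjusted p = 0.848 by limma). Dpysl4, known from brain and from p53 responses, was not detected on any of 24 arrays, D replicate 3 included, and its probe read from -6.72 to -4.79.

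Among the 3 tested Dpysl genes, D against M gave 0 calls by limma, with 0 at an unadjusted p under 0.05, where 1.38% of all genes tested were called higher and 1.59% lower (278 and 320 genes, and 407 and 140 without scaling). DB#1 against M gave 1 higher and 0 lower, against a background of 2.05% higher and 1.65% lower. DB#2 against M gave 1 higher and 1 lower, against 2.15% and 1.28% (451 and 269 genes, and 1122 and 133 without scaling). DB#3 against M gave 1 higher and 0 lower, against 1.61% and 1.15%. With 3 genes, each of these counts rests on Dpysl3 and Dpysl5 alone, and the median log2 difference of the 3 was between -0.03 and 0.20 in the 4 comparisons.

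Against D, DB#2 gave 1 higher and 1 lower, where 3.9% of genes were called higher and 2.44% lower. DB#1 gave 0 calls by limma, with 3 at an unadjusted p under 0.05, where 0.386% were called higher and 0.0891% lower. DB#3 gave 0 calls, with 2 at an unadjusted p under 0.05, where 0.24% were called higher and 0.13% lower. J365 against M0 tested 1 gene, Dpysl2, and gave 0 calls, with 0 at an unadjusted p under 0.05 and a background of 0.721% higher and 0.745% lower. In M against M0, 27.7% of all genes were called higher and 30.8% lower, and all 3 Dpysl genes tested were called higher. Of these, Dpysl3 and Dpysl5 were detected on no M0 array by the probe tested and passed the filter through M alone. Their direction was thus set by the filter. By the probe tested, Dpysl2 alone was detected in both lines. The second Dpysl5 probe, detected on 3 of 4 M0 arrays, differed between M and M0 by 0.13, against 4.52 with the probe tested. The difference between the change from M to D and that from M0 to J365 gave 0 calls of 3, with 0 at an unadjusted p under 0.05 and a background of 1.22% higher and 0.852% lower. All background shares are of calls at the adjusted p. The share of all genes at an unadjusted p under 0.05 was not counted, so the unadjusted counts have no background here.

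Across arrays the family members did not share one pattern with Crmp1. Over all 24 arrays Pearson's r with Crmp1 was 0.96 for Dpysl3, 0.89 for Dpysl2 and 0.70 for Dpysl5, values that mix 2 cell types with a gap between them. Over the 17 melanoma arrays r was 0.52 for Dpysl3, 0.12 for Dpysl2 and 0.04 for Dpysl5. These are descriptions, since arrays of a line and of a slide are not independent. Of the 13227 genes compared over the melanoma arrays, those most like Crmp1 by Pearson's r were Fkbp10 (0.970), a chaperone of collagen folding, Ripk3 (0.967), a kinase of necroptosis, Ctf1 (0.962), a cytokine, Cgnl1 (0.962), a junction protein, and Rcn3 (0.955), a calcium-binding protein of the endoplasmic reticulum. The means of Fkbp10 were -3.53 in M, 1.14 in D, 2.95 in DB#1, -1.15 in DB#2 and 2.99 in DB#3, so it shared with Crmp1 the low M and the place of DB#2 between M and D. Ripk3, Ctf1 and Cgnl1 lay at -6.31, -6.41 and -6.35 in M, near the floor of the arrays. The order was not stable, since Ripk3 went from rank 2 to rank 30 under quantile scaling, and by Spearman's rho Ctf1 was at rank 74 and Cgnl1 at rank 55. Over all 24 arrays and 14308 genes the likest were Lysmd2 (0.989), Rgs16 (0.989), Osr2 (0.987), Agpat4 (0.986) and Slc36a4 (0.985), the last of them at rank 68 under quantile scaling.

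The semaphorin pathway was read through a list of 39 genes, made of 7 class 3 semaphorins, 8 receptor genes, 9 kinases, 14 partners and effectors and Dpys, the enzyme the family resembles. Neuropilins Nrp1 and Nrp2, the co-receptors that bind the ligands, differed from M by no more than 0.35 on the log2 scale in any melanoma line, and neither was called. In D against M, 0 of 32 tested genes were called by limma, with 6 at an unadjusted p under 0.05, where 1.38% of all genes were called higher and 1.59% lower. These shares are of calls at the adjusted p and give no background for the unadjusted count. In DB#1 against M, 2 of 33 rose and none fell, against 2.05% and 1.65% of all genes. In DB#3 against M, 2 of 33 rose and 1 fell, against 1.61% and 1.15%. In DB#2 against M, 4 of 33 rose and 1 fell, against 2.15% and 1.28%. With slide as a block the calls were 2 in D against M. The median log2 difference of the tested genes in these comparisons was 0.04 in D, 0.02 in DB#1, 0.15 in DB#2 and -0.02 in DB#3.

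Among the ligands, Sema3d, a guidance cue of neural crest, rose in DB#1 and DB#3. M read -6.33, -5.37 and -3.52, with 1 of 3 arrays detected, DB#1 read -1.61, -2.45, -2.36 and -2.34, and DB#3 read -2.08, -2.41 and -2.40. Both lines lay above every M array. Since Sema3d was mostly undetected in M, it passed the filter through the brain lines, and the size of its difference depends on the floor. It was higher by 2.88 ± 0.42 in DB#1 (adjusted p = 0.000133 by limma) and by 2.78 ± 0.45 in DB#3 (adjusted p = 0.000581 by limma, and 0.122 with a fit on the 2 lines alone), and with normexp by 0.93 and 0.88. In DB#2 it was not detected on any array, at -4.39, -4.45 and -4.67. In D it read -3.44, -2.62, -1.96 and -2.77, with 3 of 4 arrays detected, and so was not tested against M.

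Sema3f, a ligand of Nrp2, read -2.71, -2.79 and -2.46 in M, -0.05, -1.40, -1.24 and -1.39 in DB#1, and -0.34, -1.42 and -1.0 in DB#3. It rose by 1.63 ± 0.38 in DB#1 (adjusted p = 0.0136 by limma) and by 1.73 ± 0.40 in DB#3 (adjusted p = 0.0176 by limma). Without the highest array of each line the difference was 1.31 in DB#1 (adjusted p = 0.0554 without replicate 1) and 1.44 in DB#3 (adjusted p = 0.148 without replicate 3). The call was also lost in DB#3 without DB#3 replicate 5, and in both lines without M replicate 1 or M replicate 2 and under quantile scaling. A higher Sema3f level was not particular to these lines. All arrays of D and DB#2 also lay above every M array, the lowest at -2.06 in D and -1.57 in DB#2. The difference from M was 0.97 ± 0.38 in D (adjusted p = 0.252 by limma). It was 1.30 ± 0.40 in DB#2 (adjusted p = 0.0993 by limma), and neither was called. The second Sema3f probe differed from M by 1.19 in DB#1 and 1.89 in DB#3. Sema3a, the ligand through which CRMPs were first described, was detected in DB#2, at -4.16, -4.16 and -3.17, and not on any M array. It was at least 1.38-fold higher there (adjusted p = 0.0139 by limma, and 0.413 with normexp), and the call was lost without M replicate 2, M replicate 3 or DB#2 replicate 3. Sema3a passed the filter through DB#2 alone, so a higher value there was the one direction open to it. It counts among the pathway genes that rose in DB#2.

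Plxna4, a plexin that transmits class 3 semaphorin signals, moved in opposite directions in 2 brain lines. M read -1.49, -0.93 and -1.11, DB#2 read 0.00, 0.38 and 0.63, and DB#3 read -2.33, -2.66 and -3.56. All DB#2 arrays lay above and all DB#3 arrays below those of M, and D, at -1.47, -1.10, -0.75 and -1.17, overlapped M. Plxna4 rose from M by 1.51 ± 0.25 in DB#2 (adjusted p = 0.000613 by limma) and fell by 1.67 on the log2 scale in DB#3 (SE 0.25, adjusted p = 0.000234 by limma). From D it rose by 1.46 ± 0.23 in DB#2 (adjusted p = 0.000343 by limma) and fell by 1.73 in DB#3 (SE 0.23, adjusted p = 0.000502 by limma). The DB#3 calls were lost with a fit on the 2 lines alone, at adjusted p = 0.071 against M and 0.284 against D.

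DB#2 also rose in Tubb3, the neuronal beta tubulin, and in L1cam, an adhesion molecule that takes part in the Sema3a receptor. Tubb3 read 2.37, 2.79 and 3.02 in M, 3.24, 2.80, 2.28 and 2.72 in D, and 3.68, 4.34 and 4.10 in DB#2, where no array overlapped the other lines named. It rose by 1.31 ± 0.26 from M (adjusted p = 0.00393 by limma) and by 1.28 ± 0.24 from D (adjusted p = 0.00201 by limma, and 0.0822 with a fit on the 2 lines alone). L1cam rose by 1.08 ± 0.29 from M (adjusted p = 0.0416 by limma), where M lay from -1.32 to -1.01 and DB#2 from -0.79 to 0.30. Its call was not followed by itself through the alternatives. The count of pathway calls in DB#2 against M fell from 5 to between 2 and 4 when an array was left out. Rock2, a kinase that phosphorylates CRMPs, fell by 0.58 in DB#2 (SE 0.16, adjusted p = 0.0483 by limma), a call that was lost when any array of M or DB#2 was left out. L1cam, and Tubb3 against M, were named after their values had been seen.

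**Figure D4:**
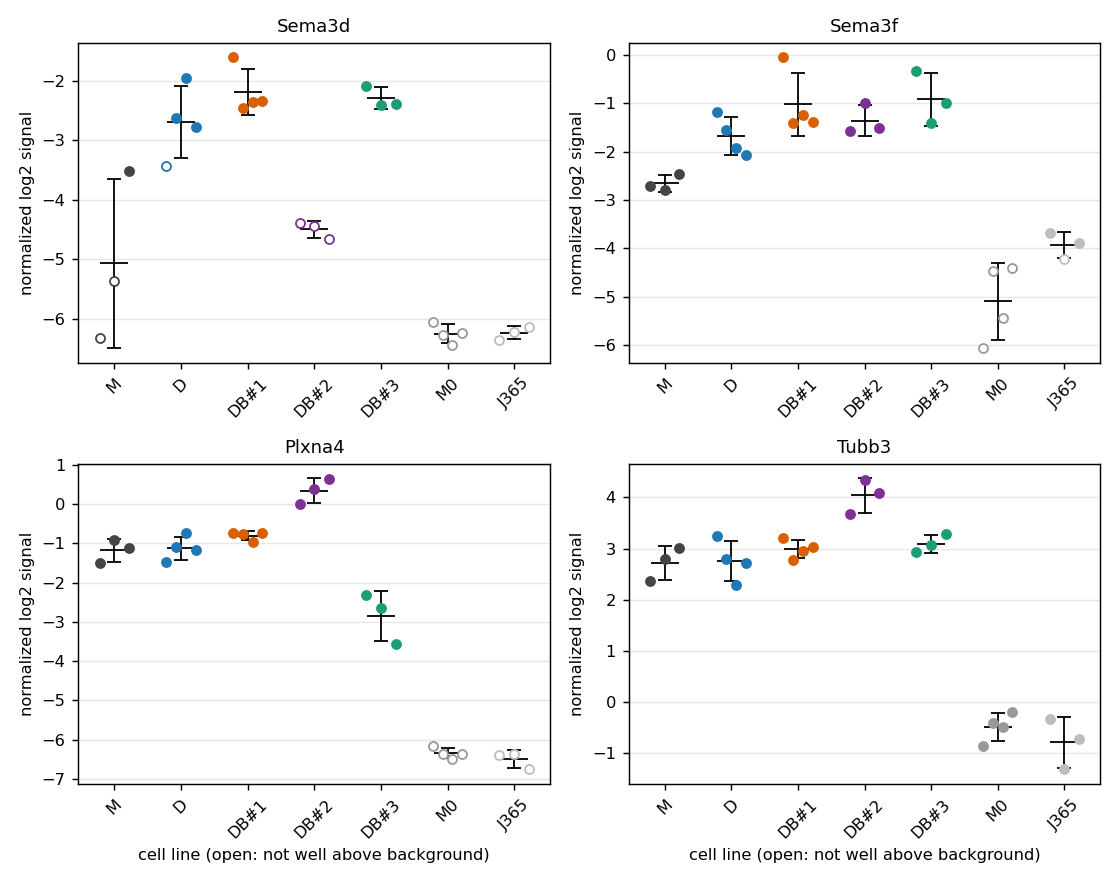
Normalized log2 signal (y axes, log2 units, each panel with its own range) of Sema3d, Sema3f, Plxna4 and Tubb3 on each array, by cell line (x axes). Points are arrays, filled where well above background, and bars are means with 1 SD. Sema3d is high in DB#1 and DB#3 and not detected in DB#2, while Plxna4 and Tubb3 are highest in DB#2 and Plxna4 is lowest of the melanoma lines in DB#3.

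Against D, 2 of 33 pathway genes rose and none fell in DB#2, where 3.9% of all genes were called higher and 2.44% lower, and with slide as a block 6 were called. In DB#3, 0 of 32 rose and 1 fell, against 0.24% and 0.13% of all genes. In DB#1, 0 of 32 were called by limma, with 0 at an unadjusted p under 0.05, against 0.386% and 0.0891%. J365 against M0 gave 0 of 26, with 2 at an unadjusted p under 0.05, against 0.721% and 0.745%. The difference between the change from M to D and that from M0 to J365 gave 0 of 33, with 7 at an unadjusted p under 0.05, against 1.22% and 0.852%. The shares given here are of calls at the adjusted p. The share of all genes at an unadjusted p under 0.05 was not counted, so the unadjusted counts cannot be set against it. M against M0 gave 21 higher and 7 lower of 33, against 27.7% and 30.8% of all genes. Of the genes tested, Sema3e, Sema3f, Plxna1, Plxna4, Mical2 and Mical3 were detected on no M0 array and passed the filter through M alone. Kif5a was detected on no M array and passed through M0 alone. The direction of these genes was thus set by the filter. Mical3, an oxidoreductase that disassembles actin, was at least 221-fold higher in M, and Plxna1 at least 146-fold. Fes, a tyrosine kinase that phosphorylates CRMPs and is typical of myeloid cells, differed between M and M0 by -7.57 ± 0.31 on the log2 scale (adjusted p = 1.02e-14 by limma), and Kif5a, a kinesin, was at least 28.5-fold lower. Their other probes moved the same way at smaller size, from 3.64 to 6.86 for Mical3, -5.66 for Fes and -0.33 for Kif5a, whose second probe was detected on 1 array. Dpys was detected on 1 array, of D, and was never tested.

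The labelled cell types were read through marker lists. All 7 genes of a melanocyte list (Tyr, Tyrp1, Dct, Pmel, Mlana, Mitf and Sox10) were detected on every melanoma array. Their mean level ran from 6.83 to 7.74 there and from -4.18 to -3.78 in the myeloid lines. The list was not absent from the myeloid lines, since Tyr, Mitf and Sox10 were detected on every myeloid array. Mitf had means of 1.24 in M0 and 2.43 in J365. Of 10 neuron markers, 3 were detected on every array of M, D, DB#1 and DB#3 and 4 in DB#2, and their mean level ran from -4.19 to -3.96 in M, from -4.27 to -3.78 in DB#1, from -4.05 to -3.66 in DB#2 and from -4.18 to -4.04 in DB#3. In D it ran from -4.45 to -1.78, with D replicate 3 highest and all 10 markers detected on that array. Of the 10 markers, 7 were detected on no array of M, DB#1 or DB#3, and 6 on none of DB#2. The Crmp1 difference between D and M was 2.69 without D replicate 3, against 2.68 with it. Of 7 fibroblast markers, 4 were detected on every array in DB#2 and 2 in each other melanoma line, and the mean level of the list ran from -4.77 to -4.59 in M and from -3.81 to -3.58 in DB#2. Pdgfrb, 1 of these markers, was detected on no M array (mean -6.32). Its means were -2.95 in D, -2.10 in DB#1, -2.79 in DB#2 and -2.46 in DB#3, with every array detected. Like Crmp1 it was lower in M than in the other melanoma lines, although Crmp1 was detected on every M array. No other fibroblast marker was undetected in M and detected throughout these lines. Pdgfra went the other way, with means of -3.15 in M, -3.80 in D, -4.43 in DB#1, -5.49 in DB#2 and -3.74 in DB#3. Of 8 blood markers, 7 were detected on every array of M0 and of J365. In D the count was 2, and in each other melanoma line it was 3. Of 7 glia markers, 6 were detected on every array of M, DB#1 and DB#3. For D and DB#2 the count was 5, and for M0 and J365 it was 3. Mbp, a glia marker, had means of 0.72 in M, 0.74 in D, 2.86 in DB#1, 0.27 in DB#2 and -0.82 in DB#3. The part of the listed markers in the values above was not tested.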

How the data were processed

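Each array held 62976 spots, read by the authors with Agilent Feature Extraction 10.7.3.1 per the labels, and the deposited values are background-subtracted intensities (gProcessedSignal). The deposited series table equals them in all 1511424 values and was not used further. The study names GeneSpring and no test. Here control spots and 117 outlier probes were left out, which left 56488 probes. Signals were put on the log2 scale and scaled by the 75th percentile of each array. The brightest probe stood for a gene. limma 3.58.1 (R 4.3.3) fitted the 24 arrays together, one coefficient for each line, which left 17 residual degrees of freedom, and was tested on simulated data. No pair of arrays was identical and no spot was saturated. The number of arrays limits the precision. In each comparison and direction the 2 called pathway genes with the largest difference were named. The members and lists were chosen with earlier results of these data known. Alternatives were quantile scaling, no scaling, the percentile over detected probes, normexp (on median signals, offset 50, as no mean signal column was given), the mean of detected probes, no filter, slide or replicate number as a block, only the lines compared, and leaving out each array.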

Additional observations from a re-analysis of the deposited data

Results flagged for a closer look

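In 15 groups of 4 arrays, 3 single arrays stood far from the rest of their line, where chance gives about 1 in 20 groups. Dpysl3 read 3.01 on D replicate 3, against 3.50 to 3.58 on the other D arrays, and this is the array with the raised share of detected probes. Dpysl3 read 4.07 on DB#1 replicate 1, against 3.70 to 3.74 on the other DB#1 arrays. Dpysl5 read -4.10 on M0 replicate 1, against -6.36 to -6.31 on the other M0 arrays, and was not well above background on any of them.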

How the results depend on the processing

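Crmp1 kept its direction against M and against D under every alternative. The difference from M moved by more than the spread between arrays with normexp alone, to 2.14 in D, 2.90 in DB#1, 1.27 in DB#2 and 2.53 in DB#3, and to 1.27 between M and M0, and the difference between DB#3 and D moved to 0.18 without scaling. Leaving out an array gave 2.59 to 2.83 for D and 3.35 to 3.62 for DB#1. Dpysl5 turned its direction between D and M, where it was never called, at 0.047 with normexp, 0.0011 with the percentile over detected probes, 0.15 without scaling, and -0.30 to 0.44 when an array was left out, and between DB#3 and D it was -0.24 to 0.49 when an array was left out, below 0 without D replicate 1.

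The count of Dpysl genes called in DB#1 against M was 2 with normexp and with only the lines compared, 0 without a filter, and 0 to 1 when an array was left out. In DB#2 against M it was 1 with only the lines compared, and in DB#3 against M 0 with only the lines compared and 0 to 1 when an array was left out. In DB#2 against D it was 1 under quantile scaling, normexp, no scaling, the mean of detected probes, only the lines compared and no filter, and 1 to 2 when an array was left out.

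Pathway genes called in D against M were 1 with quantile scaling or no filter, 2 with slide as a block, and 0 to 2 when an array was left out. In DB#1 against M they were 4 with the percentile over detected probes or only the lines compared, and 1 to 2 when an array was left out. In DB#2 against M they were 2 with normexp, 3 with only the lines compared or no filter, and 2 to 4 when an array was left out. In DB#2 against D they were 5 with quantile scaling or the mean of detected probes, 4 with the percentile over detected probes or no scaling, 6 with slide as a block, 1 with only the lines compared, and 2 to 7 when an array was left out. In DB#3 against D they were 0 with only the lines compared, and in J365 against M0 1 with quantile scaling or the percentile over detected probes. The difference between the change from M to D and that from M0 to J365 gave 1 with either of these, and 0 to 2 when an array was left out. The cause of these moves was not tested.

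With the replicate number as a block, the Dpysl calls were 0 in DB#1 against M, 0 in DB#3 against M and 1 in DB#2 against D, where Dpysl3 had adjusted p = 0.0537, 0.0561 and 0.11 by limma, and the pathway calls were 1 in D against M, 3 in DB#2 against M and 4 in DB#2 against D. The block changed no other count of calls by over 1.5 times. The numbers did not pair the arrays, since deviations from the line means correlated at a median of 0.04 over 49 same-numbered pairs, 23 of them over 0.1. Arrays of the same slide did deviate together (median 0.53, 75 of 81 pairs over 0.1), and with slide as a block the pathway calls rose as given above while no count of Dpysl calls moved by over 1.5 times.

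Without scaling the median of all genes shifted by 0.17 in D against M, 0.11 in DB#1 against M, 0.25 in DB#2 against M, -0.15 in DB#3 against D and 0.17 in J365 against M0. The split of calls over all genes into higher and lower moved by over 10 percentage points under some scalings. For DB#2 and M it was 521 and 474 with the percentile over detected probes. In DB#1 against D it was 78 and 18, and 91 and 8 with quantile scaling or 76 and 4 with normexp. For DB#2 and D it was 806 and 504, and 879 and 330 without scaling or 885 and 1026 with the percentile over detected probes. In DB#3 against D it was 48 and 26, and 18 and 42 without scaling, 58 and 12 with quantile scaling, 35 and 41 with the percentile over detected probes or 49 and 9 with normexp. In J365 against M0 it was 149 and 154, and 258 and 113 without scaling, and for the difference of both changes 283 and 197, and 245 and 297 with quantile scaling.

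Signal over background limits Dpysl4 everywhere, the brighter Dpysl5 probe in DB#2, and Crmp1 and Dpysl3 in the myeloid lines, where only bounds can be given.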
